A study of Homo sapiens with 60 samples.

Results

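The genes described here are 10 genes of drug metabolism and transport that are known targets of the pregnane X receptor (PXR, gene NR1I2) and the constitutive androstane receptor (CAR, gene NR1I3). They are CYP3A4, CYP3A5, CYP3A7, CYP2B6, UGT1A1, UGT1A6, GSTA1, GSTA2, ABCB1 and ABCC2. They were chosen as known targets, by a rule that uses no measured value but with earlier results of these data known, and were found by symbol among the 60675 genes of the deposited table, each matched by its Ensembl identifier. All 10 were found. Of these, 9 passed the filter on low counts and were tested among 16093 genes, and CYP2B6 did not pass it.

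RNA was sequenced from HepG2, an established line of human hepatocellular carcinoma cells, in 60 libraries that form 20 groups of 3, all collected after 24 h. The vehicle group is labelled 0.1% DMSO, whereas the text of the series gives 2% DMSO. The positive control was 10 µM wortmannin, which blocks phosphoinositide 3-kinases. Hot water extracts filled the other 18 groups, made from Poria Cocos (Poria below), Atractylodis Rhizoma (Atractylodes), Glycyrrhizae Radix (licorice), Panax Ginseng (ginseng), Angelicae Gigantis Radix (angelica) or Paeoniae Radix (peony), each at 20, 100 and 500 µg/mL. The labels do not say whether these groups held DMSO. All groups share the 1 cell line and its culture medium. The sources used here do not say that replicate libraries are separate cultures, so the p-values measure the spread between these libraries, which may be technical.

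PXR and CAR are nuclear receptors of the liver that bind foreign chemicals or respond to them, pair with the retinoid X receptor and switch on genes that clear drugs. The products work in sequence. Cytochromes P450 oxidise a compound, transferases attach glucuronic acid or glutathione to it, and pumps of the ABC family move it out of the cell. Several of these genes also answer to other sensors, among them the aryl hydrocarbon receptor, which binds planar aromatic compounds, and NRF2, which responds to oxidants and electrophiles. HepG2 cells are known to keep only part of the drug metabolism of hepatocytes.

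The CYP3A genes lie together on chromosome 7, and the classical PXR element of CYP3A4, an everted repeat with 6 bases between its arms (ER6, TGAACT, any 6 bases, AGGTCA), was searched for in the 250 bases before each start in RefSeq's promoters on GRCh38.p14, on both strands. The sequences are shown because CYP3A5 and CYP3A7 changed in opposite directions with Poria and licorice at 500 µg/mL against vehicle, while CYP3A4 did not pass in either. Capitals mark the positions of the 2 arms, each sequence is read on the minus strand, and the windows of 60 bases are chr7:99784315-99784374 for CYP3A4, chr7:99680071-99680130 for CYP3A5 and chr7:99735326-99735385 for CYP3A7.
CYP3A4: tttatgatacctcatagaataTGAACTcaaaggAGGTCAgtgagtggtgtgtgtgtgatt
CYP3A5: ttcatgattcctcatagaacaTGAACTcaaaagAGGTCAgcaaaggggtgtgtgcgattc
CYP3A7: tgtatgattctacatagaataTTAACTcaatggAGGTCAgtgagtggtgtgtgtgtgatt
CYP3A4 and CYP3A5 held the full ER6, with all 12 letters of its arms. The best match in CYP3A7 had 11 of 12. The full ER6 stood in 3 of 35116 RefSeq promoters (0.00854%), those of CYP3A5, CYP3A4 and ITGB1BP2. A match in letters is a description of the sequence and not a measurement of binding.

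GSTA1 and GSTA2 are neighbours on chromosome 6, and their upstream sequences are shown because the levels of these 2 genes moved together across the groups. Over the 250 bases before the RefSeq starts, 243 were identical (97.2%). Printed are the 156 bases of these that lie before the start of the gene in GENCODE too, at chr6:52803911-52804066 for GSTA1 and chr6:52763570-52763725 for GSTA2 on the minus strand of GRCh38.p14, with the 4 bases that differ between them in capitals.
GSTA1: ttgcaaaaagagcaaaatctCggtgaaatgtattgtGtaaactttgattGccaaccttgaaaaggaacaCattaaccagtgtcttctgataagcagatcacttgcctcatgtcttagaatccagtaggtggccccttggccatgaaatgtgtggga
GSTA2: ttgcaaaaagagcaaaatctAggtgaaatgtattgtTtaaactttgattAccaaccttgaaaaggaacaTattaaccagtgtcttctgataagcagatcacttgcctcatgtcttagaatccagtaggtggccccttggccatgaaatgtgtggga
A core of the element bound by the aryl hydrocarbon receptor (XRE core, GCGTG) was in 32.2% of all promoters of this length, and a core of the NRF2 element (ARE core, TGAC, any 3 bases, GC) in 10.9%. Among the 10 genes, UGT1A6 held 1 of each, in different promoters, ABCB1 held 1 XRE core and CYP2B6 held 1 ARE core. The other 7 genes held neither in this window, which says nothing of elements farther away.

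Total counts ran from 20.9 M to 33.4 M per library with a median of 26.1 M, so 3 counts in a library correspond to 0.09 to 0.144 CPM (counts of a gene per 1 M counts of its library). A CPM value is a share of all counts of a library, so RNA per cell and total RNA cannot be told apart. All 10 listed markers of hepatocytes and HepG2 cells were above 0 in every library, with ALB at 14130 and AFP at 15820 CPM on average. Of 5 blood cell markers, PTPRC was at 0 in all 60 libraries and CD3E and HBB had at most 3 counts, whereas CD68 (39.3 to 78.1 CPM) and CD14 (1.74 to 4.62 CPM) were present in every library. ACTA2 of stellate cells and VIL1 of intestine were also present in every library, at means of 64.1 and 334 CPM. The other intestine markers were low, CDX2 at a mean of 0.053 CPM with 15 libraries at 0, and FABP2 at 0.778 CPM. Listed markers of lung and breast epithelial lines were low too, with KRT5 at 0 in all 60 libraries and ESR1 highest, at a mean of 0.256 CPM. Of the stromal genes, COL1A2 and DCN had at most 1 count and LUM at most 3, while COL1A1 had 2 to 18 in every library. Mitochondrially encoded genes took up, of all counts, 10.5% to 11.8% in vehicle, 11% to 13.7% with wortmannin, 11.6% to 13.1% with Poria at 500 µg/mL and 8.9% to 11.6% with licorice at 500 µg/mL. With Poria at 100 µg/mL it was 11.2% to 15.2%. Its part in the results was not tested. Replicate 1 of Poria at 100 µg/mL stood apart from its group, with a chi-square per gene of 39.65 and 38.3 against the other libraries, which differed from each other by 4.18. It also had the lowest depth of all libraries and the highest mitochondrial share. It bears on no change between 20 and 500 µg/mL other than through the shared spread, and is replicate 1 wherever values at 100 µg/mL of Poria are given below. Other groups also had a library apart, by less. Replicate 1 of ginseng at 100 µg/mL differed by 34.77 and 22.86, and the others by 7.64. These were 24.62, 14.7 and 6.51 for licorice at 20 µg/mL and 19.74, 15.1 and 3.84 for ginseng at 500 µg/mL. Angelica and peony at 20 µg/mL reached 20.11 and 20.97. All but the first of these groups enter the changes over the doses. The column names of the table begin with a number that is the same for Poria and Atractylodes (2), for licorice and ginseng (3), for angelica and peony (4), and apart for vehicle and wortmannin. In comparisons with vehicle, the treatment and whatever this number stands for cannot be told apart, whereas 500 against 20 µg/mL of an extract, and the 2 extracts with the same number, are compared within it.

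In vehicle, the members differed widely in level when counts were divided by the length of the merged exons. ABCC2, the canalicular pump for conjugated bilirubin and other conjugates, stood at 41 ± 0.498 CPM per kb (SD, n = 3). GSTA1, a glutathione transferase of hepatocytes, stood at 40.3 ± 3.25 CPM per kb, and the libraries of these 2 genes overlapped. ABCB1, the multidrug pump P-glycoprotein, followed at 16.9 CPM per kb and GSTA2 at 12.3 CPM per kb. CYP3A7, the CYP3A enzyme of fetal liver, and UGT1A1, the enzyme that conjugates bilirubin, were at 3.13 and 3.1 CPM per kb with overlapping libraries. CYP3A5 had 0.995 CPM per kb, UGT1A6, which conjugates small phenols, 0.163, and CYP3A4, the main drug oxidising P450 of adult liver, 0.125. CYP2B6, the classical target of CAR, had no count in vehicle.

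**Figure D1:**
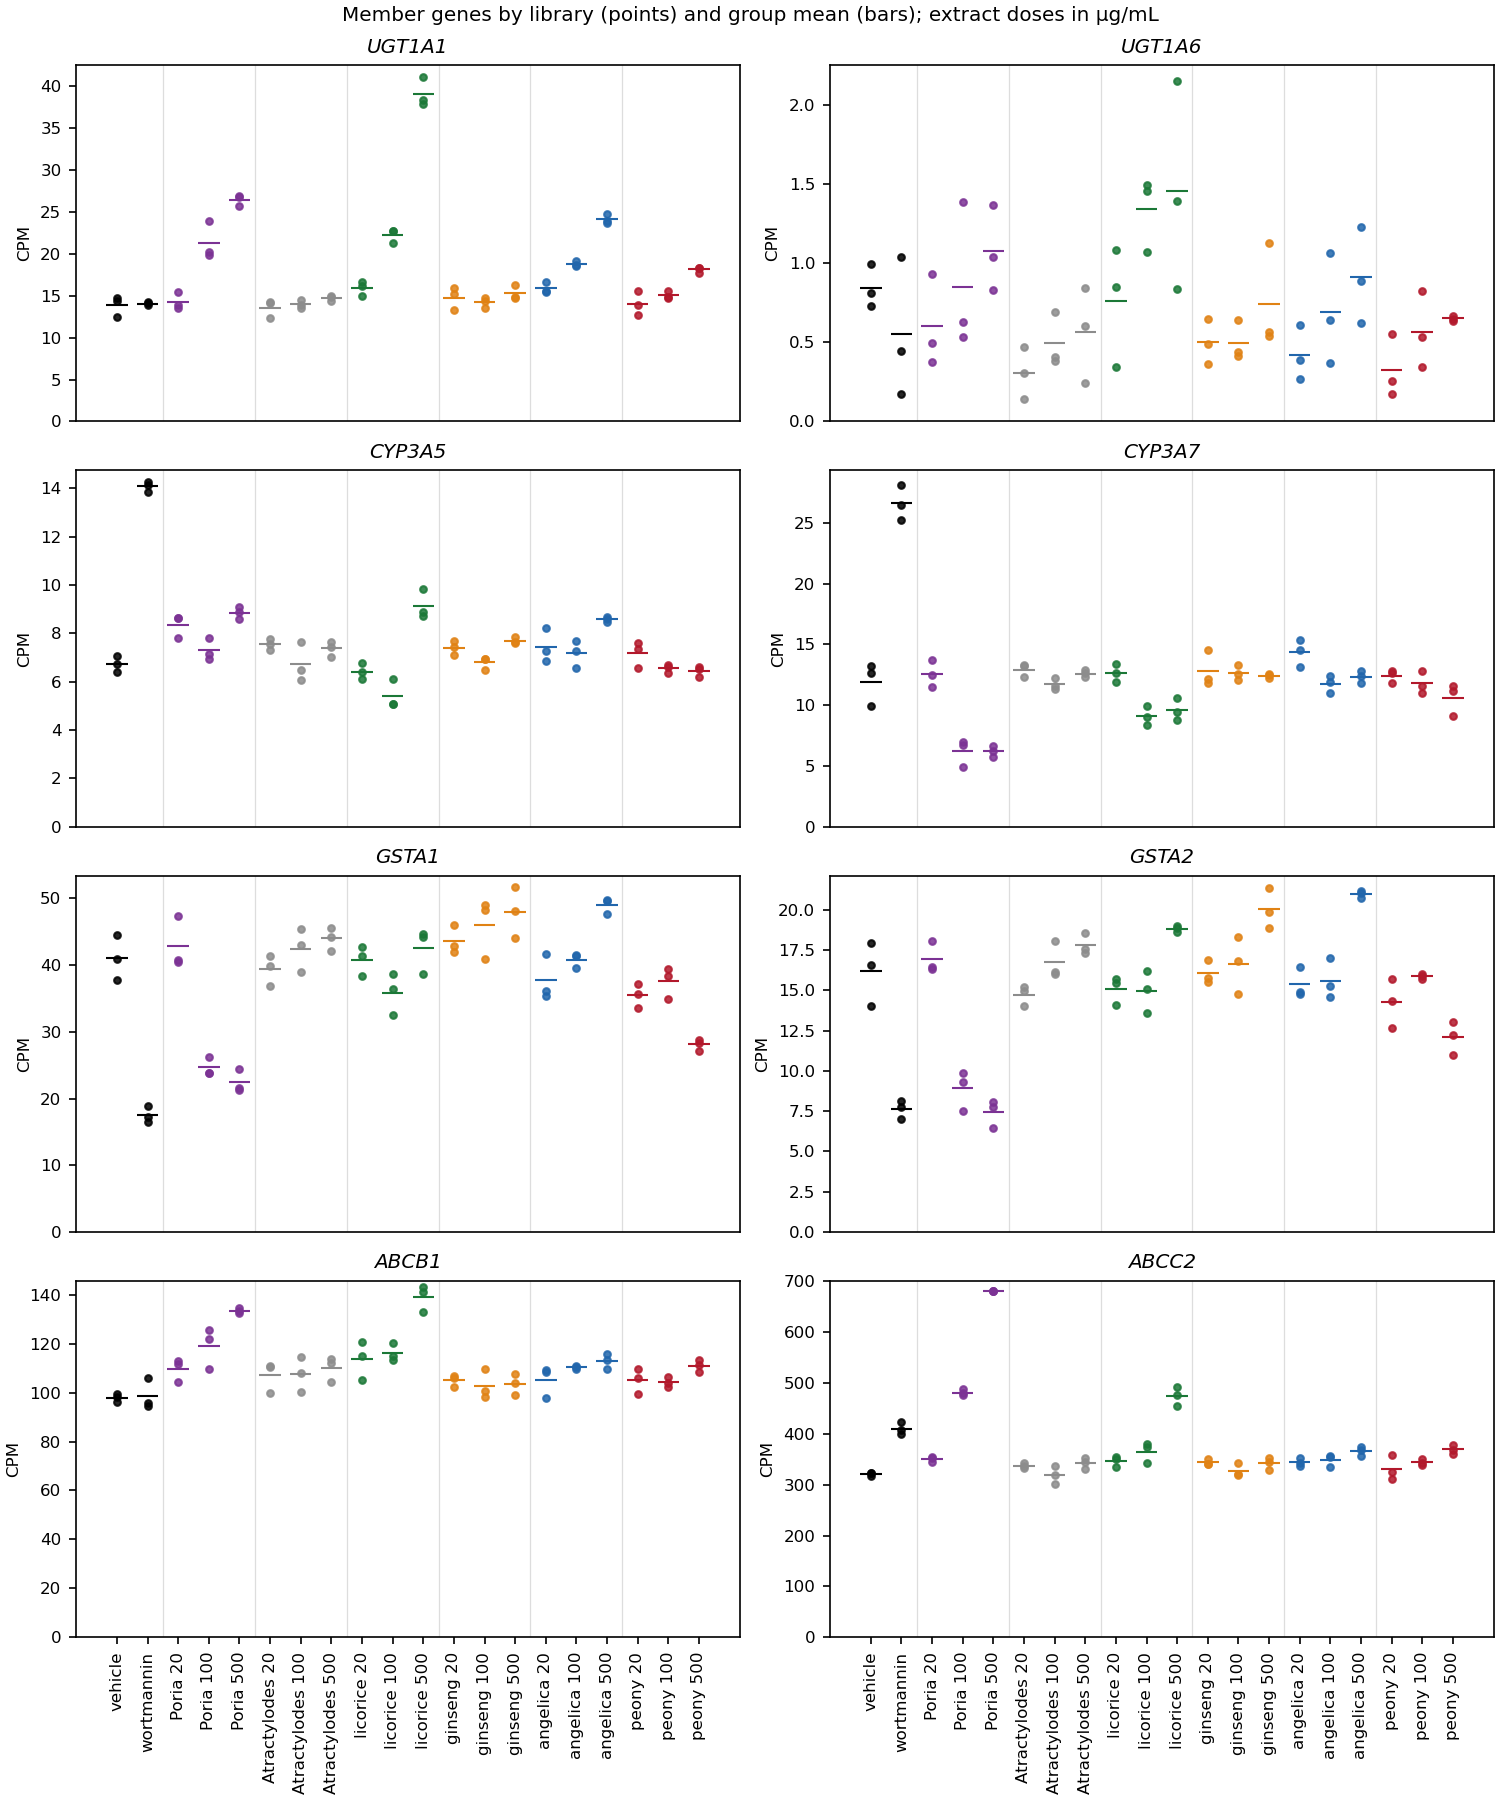
CPM of 8 member genes in each library (points) and group mean (bars), with the 20 groups on the x axis, extract doses in µg/mL and a linear y axis from 0. UGT1A1 reaches 39.09 CPM with licorice at 500 µg/mL, ABCC2 reaches 681.5 CPM with Poria at 500 µg/mL, and GSTA1 and GSTA2 stand low with wortmannin and with Poria at 100 and 500 µg/mL.

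CYP3A4 (ENSG00000160868, chr7:99756960-99784265 on the minus strand of GRCh38) was close to the limit of detection, with 3 to 26 counts per library. In vehicle its 3 libraries had 0.431, 0.318 and 0.431 CPM, and with wortmannin they had 0.684, 0.753 and 1.0 CPM. All wortmannin libraries lay above all vehicle libraries. The level rose with wortmannin by a log2 change of 1.05 ± 0.363 (SE), which is 2.07-fold, with an adjusted p of 0.0143 in edgeR's quasi-likelihood test. This call was lost without vehicle replicate 2 (log2 change 0.919, adjusted p = 0.066 in edgeR) and without wortmannin replicate 3 (0.891, adjusted p = 0.0766). No extract changed CYP3A4 past the threshold of 0.05 in this test, and with SEs of 0.409 to 0.46 on the log2 scale for the extracts at 500 µg/mL against vehicle or against 20 µg/mL, the depth limited what could be detected. With Poria at 500 µg/mL its libraries, 0.24 to 0.289 CPM, lay below those of vehicle, at a log2 change of -0.46 ± 0.441 (adjusted p = 0.409, edgeR).

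CYP3A5 (ENSG00000106258, chr7:99648194-99680026, minus strand), an enzyme whose common human alleles differ in activity, was measured with 119 to 417 counts per library. Its vehicle libraries had 7.06, 6.39 and 6.72 CPM and its wortmannin libraries 13.9, 14.3 and 14.1 CPM, with no overlap. The level rose 2.12-fold with wortmannin (log2 change 1.08 ± 0.067, adjusted p = 2.82e-19, edgeR). With Poria at 500 µg/mL the libraries had 8.59, 8.86 and 9.1 CPM, a rise over vehicle of 0.50 ± 0.071 on the log2 scale (adjusted p = 5.27e-08). At 20 µg/mL of Poria they had 7.8, 8.64 and 8.64 CPM, so the 2 doses overlapped, and the change of 0.16 ± 0.07 between them did not pass (adjusted p = 0.0903, edgeR). With licorice the libraries went from 6.1, 6.4 and 6.75 CPM at 20 µg/mL to 8.7, 8.9 and 9.86 CPM at 500 µg/mL, a rise of 0.51 ± 0.072 on the log2 scale (adjusted p = 2.73e-07). The licorice groups did not overlap. Angelica at 500 µg/mL was above vehicle by 0.36 ± 0.071 (adjusted p = 0.000283, edgeR), and peony and ginseng did not change CYP3A5 past the threshold. From 20 to 500 µg/mL of angelica the change of 0.215 ± 0.071 did not pass (adjusted p = 0.207, edgeR), although the libraries did not overlap.

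CYP3A7 (ENSG00000160870, chr7:99684957-99735196, minus strand) had 13.2, 9.95 and 12.6 CPM in vehicle and 26.5, 25.3 and 28.2 CPM with wortmannin. The groups did not overlap, and the rise was 2.25-fold (log2 change 1.17 ± 0.082, adjusted p = 2.85e-17, edgeR). With Poria its libraries had 11.5, 12.5 and 13.7 CPM at 20 µg/mL, 4.94, 6.98 and 6.71 CPM at 100 µg/mL and 6.21, 6.67 and 5.73 CPM at 500 µg/mL. The libraries at 100 and at 500 µg/mL overlapped, which they did not without replicate 1 at 100 µg/mL, and both groups lay below all libraries at 20 µg/mL. From 20 to 500 µg/mL the level fell by 0.94 on the log2 scale (SE 0.099, adjusted p = 3.76e-11). Licorice at 500 µg/mL, with 9.46, 8.82 and 10.6 CPM, was below its libraries at 20 µg/mL, which had 12.7, 13.4 and 11.9 CPM, and the level fell by 0.40 on the log2 scale (SE 0.092, adjusted p = 0.000942). Against vehicle the licorice groups overlapped and the fall was 0.32 (adjusted p = 0.00566), which was lost without vehicle replicate 1 (adjusted p = 0.0676, edgeR).

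The 3 CYP3A members thus rose together with wortmannin and did not with Poria and licorice. The ratio of CYP3A7 to CYP3A5 in CPM was 1.77 ± 0.18 in vehicle and 1.89 ± 0.11 with wortmannin (SD, n = 3). It was 0.70 ± 0.06 with Poria at 500 µg/mL, where the libraries ran from 0.63 to 0.75, and 1.05 ± 0.05 with licorice at 500 µg/mL. All libraries of these 2 extract groups lay below the lowest vehicle library, at 1.56. CYP3A43, the fourth gene of the cluster, is no member. It had 1.72, 1.31 and 1.76 CPM in vehicle, 3.87 to 5.52 CPM with wortmannin and 0.16 to 0.18 CPM with Poria at 500 µg/mL. Its log2 changes against vehicle were 1.61 ± 0.158 (adjusted p = 2.66e-12) with wortmannin and -3.08 ± 0.28 (adjusted p = 2.65e-13) with Poria, in edgeR. The Poria values of CYP3A43 lay close to the limit of detection, with 4 counts in its lowest library.

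Reads of the CYP3A genes can be shared out between them. Of the words of 100 bases in CYP3A7's transcripts, 37.7% also stood in another gene, mainly the read-through transcript CYP3A7-CYP3A51P, whereas 0.17% of CYP3A5's and 0.494% of CYP3A4's did. The sum of CYP3A4, CYP3A5, CYP3A7 and CYP3A43 rose with wortmannin from 20.64 ± 2.36 to 46.38 ± 2.12 CPM (SD, n = 3), a log2 change of 1.18 ± 0.062 (SE). It fell with Poria at 500 µg/mL to 15.49 ± 0.383 CPM (log2 change -0.31 ± 0.068, adjusted p = 0.000192, edgeR). With licorice the sum did not pass, at -0.05 ± 0.066 against vehicle (adjusted p = 0.586, edgeR). CYP3A7-CYP3A51P was not in this sum, so the sum cannot show how reads were divided between it and CYP3A7.

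CYP2B6 (ENSG00000197408, chr19:40991250-41018398, plus strand) had 11 counts over all libraries. It was at 0 in 50 of the 60, and the highest library had 2 counts. No group had more than 2 counts in its 3 libraries, so no difference was detectable at this depth.

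UGT1A1 (ENSG00000241635, chr2:233760248-233773299, plus strand) showed the largest rise of the tested members against vehicle at 500 µg/mL, in licorice. Its libraries had 14.7, 14.4 and 12.5 CPM in vehicle. With licorice they had 16.2, 16.6 and 15 CPM at 20 µg/mL, 22.7, 22.7 and 21.3 CPM at 100 µg/mL and 38.4, 41.1 and 37.8 CPM at 500 µg/mL. None of the 3 doses overlapped with the next. The rise from 20 to 500 µg/mL was 2.44-fold (log2 change 1.29 ± 0.062, adjusted p = 1.67e-22, edgeR).

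With Poria, UGT1A1 had 13.5, 13.9 and 15.4 CPM at 20 µg/mL, 19.8, 23.9 and 20.3 CPM at 100 µg/mL and 25.8, 26.9 and 26.8 CPM at 500 µg/mL. It rose 1.96-fold between the lowest and highest dose (log2 change 0.97 ± 0.065, adjusted p = 8.71e-18, edgeR). With angelica it went from 16.6, 15.6 and 15.4 to 23.9, 24.7 and 23.7 CPM, a rise of 0.61 ± 0.064 on the log2 scale (adjusted p = 2.46e-09). With peony it went from 12.7, 13.9 and 15.5 to 18.4, 17.8 and 18.3 CPM, a rise of 0.36 ± 0.068 (adjusted p = 0.000349). In each of these 3 extracts the 2 doses did not overlap. The peony call was lost when only the libraries compared were fitted (adjusted p = 0.0571, edgeR). Wortmannin, with 14.2, 14.1 and 13.9 CPM, lay within the range of vehicle, and its log2 change was 0.04 ± 0.069 (adjusted p = 0.652, edgeR).

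UGT1A6 (ENSG00000167165, chr2:233691607-233773300, plus strand) had 4 to 52 counts per library, and its libraries scattered. Vehicle had 0.995, 0.811 and 0.729 CPM and licorice at 500 µg/mL had 0.835, 2.15 and 1.39 CPM, with overlap. The log2 change was 0.76 ± 0.404 (adjusted p = 0.153, edgeR). From 20 to 500 µg/mL its log2 change was between 0.58 and 1.15 in all 6 extracts, and none passed, with adjusted p between 0.0933 and 0.996 (edgeR). The 1 comparison that passed was Poria against Atractylodes at 500 µg/mL, with 1.37, 1.04 and 0.832 against 0.242, 0.606 and 0.842 CPM, which overlap. Its adjusted p was 0.049 in edgeR and 0.059 in DESeq2, and the call was lost without either of 2 libraries in each group (adjusted p 0.0744 to 0.27, edgeR). With no filter on low counts UGT1A6 passed in 3 further comparisons with licorice at 500 µg/mL or over its doses and in Poria over its doses (adjusted p 0.0171 to 0.049, edgeR).

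The genes of the UGT1A locus have their own first exons and share the others, so 48.8% of UGT1A1's words of 100 bases and 38.7% of UGT1A6's stood in another gene of the locus. The sum of all 9 UGT1A genes was 15.78 ± 1.59 CPM in vehicle and 43.62 ± 2.23 CPM with licorice at 500 µg/mL (SD, n = 3). This sum rose by 1.46 ± 0.059 on the log2 scale with licorice (adjusted p = 6.86e-26) and by 1.02 ± 0.06 with Poria (adjusted p = 8.36e-20), in edgeR. UGT1A3, another gene of the locus, had 0.564 to 1.36 CPM in vehicle and 2.32 to 2.9 CPM with licorice at 500 µg/mL.

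GSTA1 (ENSG00000243955, chr6:52791664-52803910, minus strand) and GSTA2 (ENSG00000244067, chr6:52750089-52763569, minus strand) encode glutathione transferases of the alpha class. GSTA1 had 44.4, 41 and 37.8 CPM in vehicle and 18.8, 16.5 and 17.3 CPM with wortmannin. GSTA2 had 17.9, 16.6 and 14 CPM in vehicle and 8.13, 7.02 and 7.75 CPM with wortmannin. Neither gene's groups overlapped. GSTA1 was 2.32-fold lower (log2 change -1.21 ± 0.077, adjusted p = 9.38e-19) and GSTA2 2.1-fold lower (log2 change -1.07 ± 0.092, adjusted p = 3.4e-14) in edgeR.

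With Poria both genes fell from 20 to 500 µg/mL, and their libraries at 100 µg/mL also lay below those at 20 µg/mL, with or without replicate 1. GSTA1 had 40.8, 40.5 and 47.4 CPM at 20 µg/mL, 26.3, 23.9 and 23.8 CPM at 100 µg/mL and 21.6, 24.4 and 21.3 CPM at 500 µg/mL. Its log2 change from 20 to 500 µg/mL was -0.85 ± 0.076 (adjusted p = 1.39e-13, edgeR). GSTA2 had 16.3, 16.5 and 18 CPM at 20 µg/mL, 9.88, 7.54 and 9.33 CPM at 100 µg/mL and 8.08, 6.43 and 7.75 CPM at 500 µg/mL, a log2 change of -1.11 ± 0.093 (adjusted p = 2.69e-14, edgeR).

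Over the doses, GSTA1 rose with angelica and fell with peony. From 20 to 500 µg/mL of angelica, GSTA1 went from 36.2, 35.4 and 41.7 to 47.7, 49.7 and 49.7 CPM (log2 change 0.39 ± 0.071, adjusted p = 0.000564) and GSTA2 rose by 0.46 ± 0.081 (adjusted p = 0.000366, edgeR). Over the same doses of peony, GSTA1 went from 35.7, 37.1 and 33.6 to 27.1, 28.4 and 28.8 CPM and fell by 0.35 on the log2 scale (SE 0.075, adjusted p = 0.00192), a call that fitting all 3 doses as a trend on log dose did not keep (adjusted p = 0.0703, edgeR). Angelica at 500 µg/mL was above peony at 500 µg/mL by 0.83 ± 0.073 in GSTA1 (adjusted p = 6.27e-12) and by 0.83 ± 0.084 in GSTA2 (adjusted p = 5.01e-10), with no overlap in either gene.

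Some smaller changes of these 2 genes against vehicle depended on single libraries. Ginseng at 500 µg/mL was above vehicle by 0.23 ± 0.07 in GSTA1 (adjusted p = 0.0268) and by 0.32 ± 0.081 in GSTA2 (adjusted p = 0.00761, edgeR). Both calls were lost without ginseng replicate 2 and without vehicle replicate 3, and that of GSTA1 also without ginseng replicate 3 or vehicle replicate 2 (adjusted p 0.0638 to 0.186, edgeR). Licorice at 500 µg/mL was above vehicle by 0.21 ± 0.081 in GSTA2 (adjusted p = 0.0421), which was lost without any 1 of 5 of the 6 libraries, all but vehicle replicate 1 (adjusted p 0.0545 to 0.324, edgeR). This GSTA2 call was also lost with a minimum mean of 1 CPM and with only the libraries compared (adjusted p = 0.0591 and 0.0506, edgeR). Over the doses of licorice, GSTA2 went from 14.1 to 15.7 CPM at 20 µg/mL to 18.6 to 19.0 CPM at 500 µg/mL, without overlap. That rise was 0.316 ± 0.083 on the log2 scale (adjusted p = 0.00359, edgeR). Angelica against vehicle in GSTA1, at 0.27 ± 0.07 (adjusted p = 0.00498), was lost without vehicle replicate 3 (adjusted p = 0.0574, edgeR).

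The ratio of GSTA1 to GSTA2 in CPM was 2.55 ± 0.13 in vehicle, 2.30 ± 0.06 with wortmannin and 3.07 ± 0.63 with Poria at 500 µg/mL (SD, n = 3). Of the words of 100 bases of GSTA1's transcripts, 9.85% stood also in GSTA2, so the division of reads between them is uncertain. The sum of the 5 GSTA genes, in which GSTA4 had a median of 657 counts, fell by 0.59 on the log2 scale with wortmannin (SE 0.058, adjusted p = 2.86e-12, edgeR). The sum of GSTA1 and GSTA2 alone, added after the data were seen, fell by 1.17.

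ABCC2 (ENSG00000023839, chr10:99782640-99852594, plus strand) had 7365 to 18861 counts per library and shared no word of 100 bases with another gene. Its libraries had 324, 317 and 324 CPM in vehicle. With Poria they had 345, 354 and 353 CPM at 20 µg/mL, 477, 488 and 480 CPM at 100 µg/mL and 681, 682 and 682 CPM at 500 µg/mL. No 2 doses overlapped, and the rise from 20 to 500 µg/mL was 2.05-fold (log2 change 1.04 ± 0.038, adjusted p = 5.03e-28, edgeR).

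With licorice, ABCC2 had 335, 355 and 351 CPM at 20 µg/mL, 342, 374 and 380 CPM at 100 µg/mL and 455, 476 and 493 CPM at 500 µg/mL. The lower 2 doses overlapped, and the highest stood above both, with a rise over 20 µg/mL of 0.45 ± 0.037 on the log2 scale (adjusted p = 1.25e-13, edgeR). Wortmannin, at 399, 408 and 423 CPM, was 1.29-fold above vehicle (log2 change 0.37 ± 0.037, adjusted p = 8.69e-12). Angelica and peony at 500 µg/mL were above vehicle by 0.20 ± 0.037 and 0.19 ± 0.037 (adjusted p = 0.000115 and 0.000196, edgeR). From 20 to 500 µg/mL of peony the log2 change was 0.14 ± 0.038 (adjusted p = 0.0237), and it was lost with no filter, with only the libraries compared, in the regression on log dose, and without either library 2 or 3 at 20 µg/mL or library 1 or 2 at 500 µg/mL (adjusted p 0.0536 to 0.272, edgeR).

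ABCB1 (ENSG00000085563, chr7:87503633-87713323, minus strand) moved less than ABCC2. Its libraries had 99.4, 98.4 and 96.2 CPM in vehicle and 95.9, 94.7 and 106 CPM with wortmannin, which overlapped (log2 change 0.03 ± 0.052, adjusted p = 0.692, edgeR). With licorice it went from 115, 121 and 105 CPM at 20 µg/mL to 143, 133 and 141 CPM at 500 µg/mL, without overlap and with a rise of 0.29 ± 0.052 on the log2 scale (adjusted p = 2.72e-05). With Poria it went from 104, 113 and 112 to 133, 133 and 135 CPM, again without overlap and with a rise of 0.36 ± 0.052 (adjusted p = 7.96e-08, edgeR).

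The means of ABCB1 in all 18 extract groups, 102.9 to 139.1 CPM, were above the vehicle mean of 98 CPM, also at 20 µg/mL, where they ran from 105 to 113.6 CPM. Against vehicle the rises were therefore larger than over the doses, 0.50 ± 0.052 for licorice and 0.55 ± 0.052 for Poria (adjusted p = 6.79e-11 and 6.49e-13, edgeR). Angelica and peony at 500 µg/mL passed against vehicle, at 0.22 ± 0.052 and 0.17 ± 0.052 (adjusted p = 0.0022 and 0.018), but not against 20 µg/mL (adjusted p = 0.416 and 0.624, edgeR). The peony call was lost without peony replicate 1 or 2 or vehicle replicate 2 or 3 (adjusted p 0.0513 to 0.0982, edgeR).

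**Figure D2:**
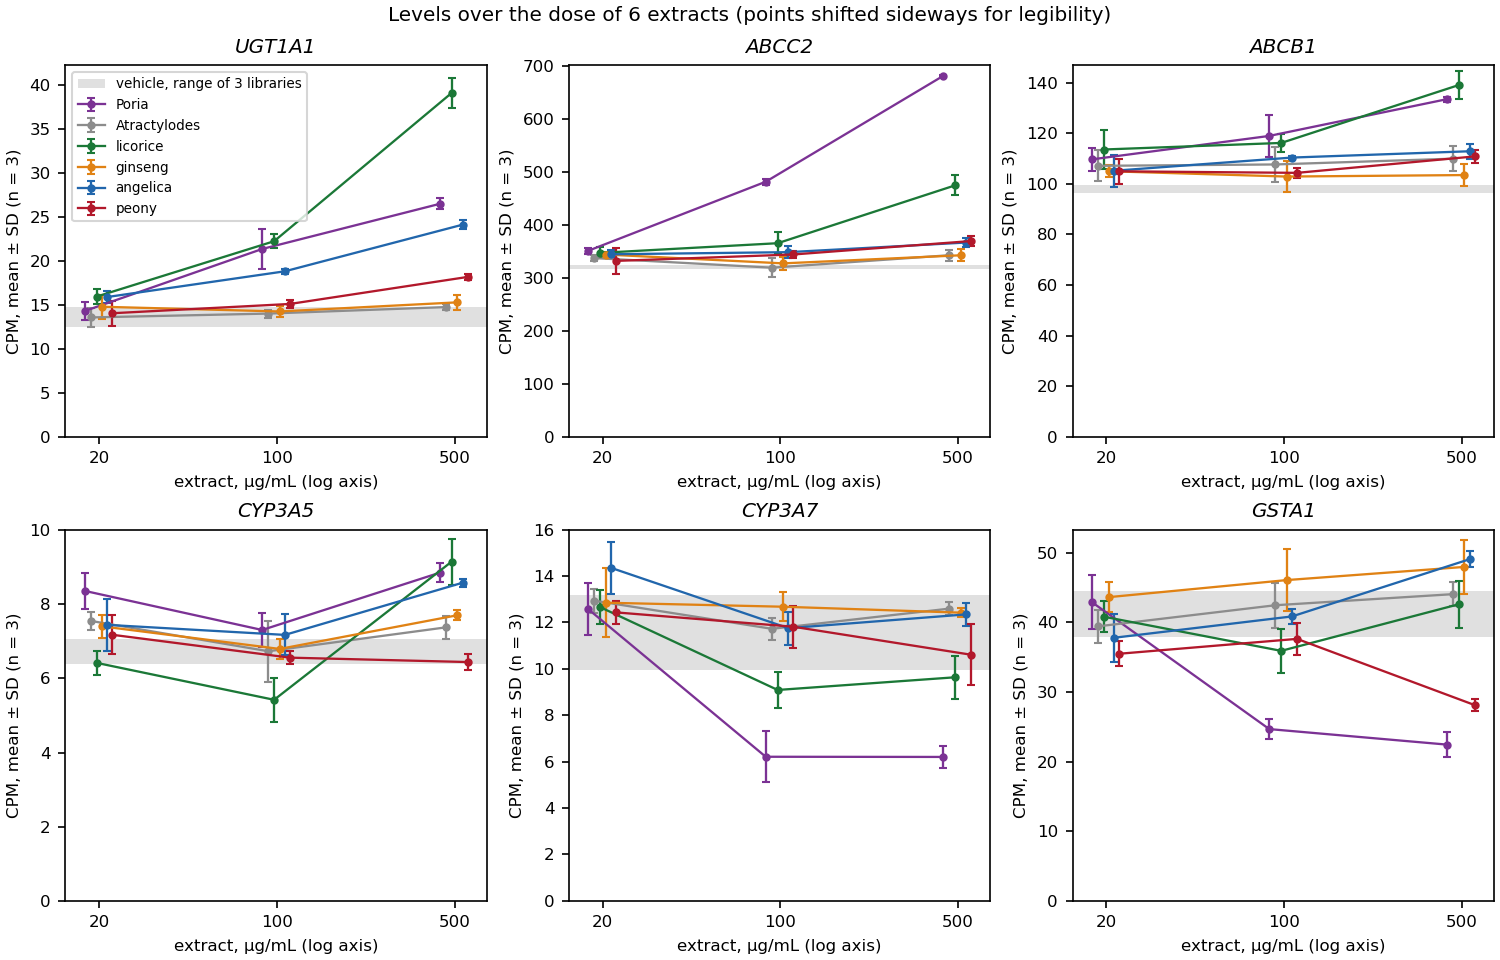
Mean CPM ± SD (3 libraries) of 6 member genes against the extract dose on a log axis, 1 line per extract, with the range of the vehicle libraries as a grey band. ABCC2 climbs with Poria from 350.9 to 681.5 CPM, UGT1A1 climbs most with licorice, and CYP3A7 and GSTA1 are lower at 100 and 500 µg/mL of Poria than at 20 µg/mL.

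Wortmannin against vehicle, the comparison with the positive control, changed 6 of the 9 tested members. CYP3A4, CYP3A5, CYP3A7 and ABCC2 rose and GSTA1 and GSTA2 fell. Of all genes tested, 22.4% rose and 24% fell in this comparison. The median log2 change was 0.04 over the 9 members and 0.01 over all genes.

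Poria at 500 µg/mL against vehicle raised 4 members (CYP3A5, UGT1A1, ABCB1 and ABCC2) and lowered 3 (CYP3A7, GSTA1 and GSTA2), while 23.9% of all genes rose and 23.7% fell. The median was 0.47 over the members and -0.02 over all genes. Over the doses of Poria, 500 against 20 µg/mL, the same members passed except CYP3A5, so that 3 rose and 3 fell, against 22.3% and 21.2% of all genes. With licorice at 500 µg/mL against vehicle 5 members rose and 1 fell, against 16.7% and 15.7% of all genes, with medians of 0.43 over the members and -0.01 over all genes. Of the 10 hepatocyte and HepG2 markers, 8 fell and 0 rose in this comparison (median log2 change -0.31), and their summed level was 52336 to 55077 CPM with licorice and 64347 to 65909 CPM in vehicle. With wortmannin 5 of these markers rose and 1 fell, and with Poria 4 rose and 3 fell, against vehicle. Over the doses of licorice 8 of these markers fell and 1 rose. Their part in the results was not tested. Of the members, 5 rose and 1 fell over the doses of licorice too, against 11% and 10.3% of all genes. In both licorice comparisons the 5 that rose were CYP3A5, UGT1A1, GSTA2, ABCB1 and ABCC2, and CYP3A7 was the 1 that fell.

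Angelica at 500 µg/mL raised 6 members over vehicle and lowered none, against 9.51% of all genes that rose and 9.41% that fell. Over its doses 3 members rose, UGT1A1, GSTA1 and GSTA2, against 0.534% of all genes that rose and 0.684% that fell. Peony at 500 µg/mL raised 3 members over vehicle (UGT1A1, ABCB1 and ABCC2) and lowered GSTA1 and GSTA2, against 9.68% and 9.98% of all genes. Over the doses of peony UGT1A1 and ABCC2 rose and GSTA1 fell, against 1.78% and 1.7%.

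Ginseng at 500 µg/mL raised GSTA1 and GSTA2 over vehicle, against 4.66% of all genes that rose and 5.58% that fell. Over its doses it changed no member in edgeR, against 0.0249% and 0.124% of all genes. At an unadjusted p below 0.05, 2 members passed there, and DESeq2 called 1, GSTA2, at a log2 change of 0.33 (adjusted p = 0.0363). GSTA2 had 18.9, 21.4 and 19.9 CPM at 500 µg/mL and 16.9, 15.8 and 15.5 CPM at 20 µg/mL of ginseng, without overlap. Atractylodes changed no member at 500 µg/mL against vehicle in edgeR, where 0.559% of all genes rose and 0.329% fell. These 143 genes became 364 without Atractylodes replicate 1, 12 or 13 without replicate 2 or 3 or without vehicle replicate 2, and 32 without vehicle replicate 3. It changed none over its doses either, with 0.0124% and 0.0373% of all genes. At an unadjusted p below 0.05, 2 members passed against vehicle and 1 over the doses, and DESeq2 called 0 in both. The share of all genes at that unadjusted p was not counted, here or for ginseng. These unadjusted counts therefore cannot be set against all genes.

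**Figure D3:**
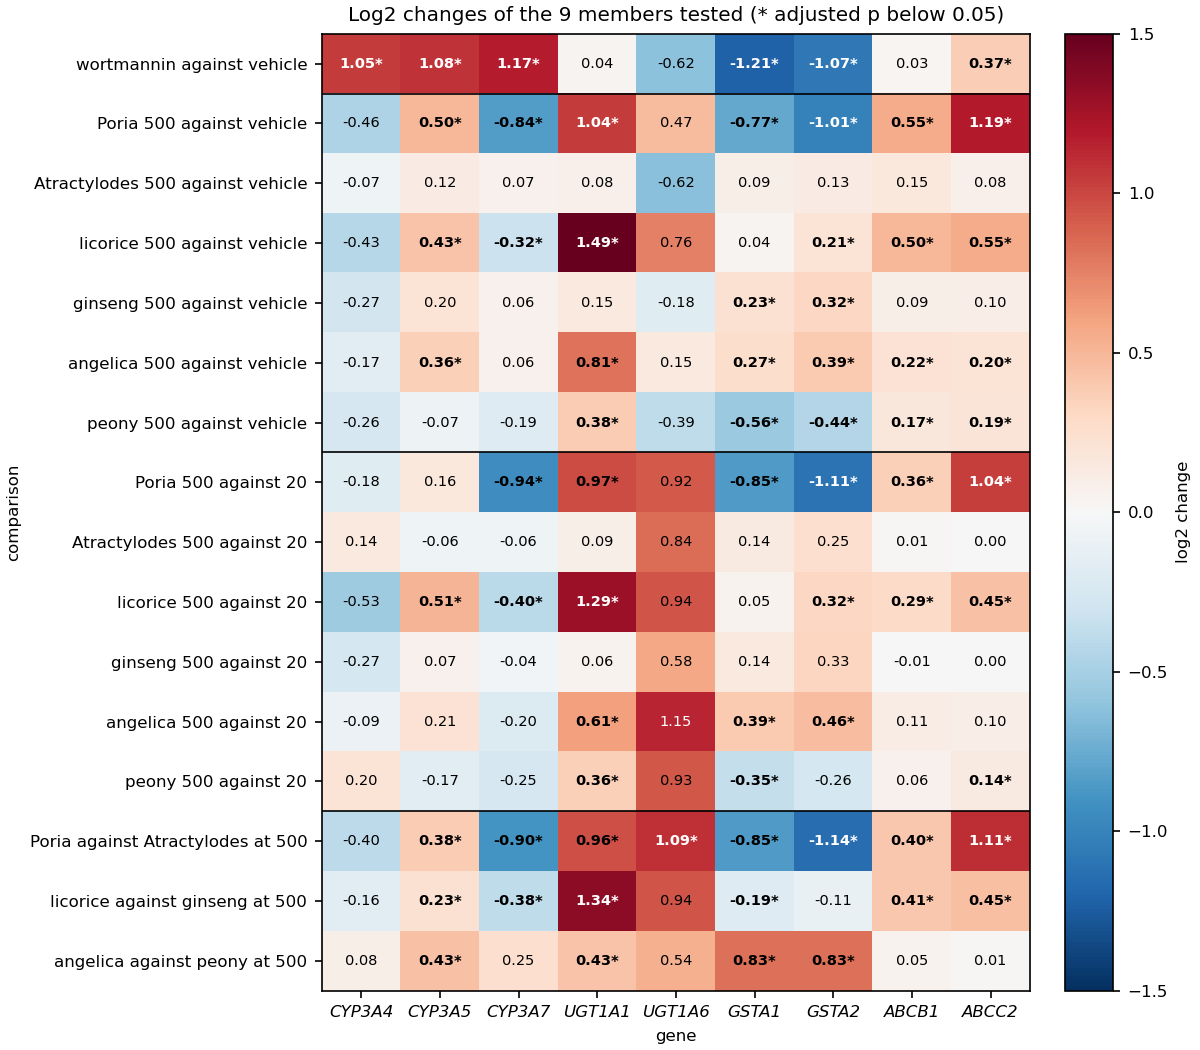
Log2 changes of the 9 tested members (columns) in 16 comparisons (rows), with a colour scale from -1.5 to 1.5 and an asterisk where the adjusted p of edgeR is below 0.05. UGT1A1 and ABCC2 rise with Poria and with licorice, while GSTA1 and GSTA2 fall with wortmannin and with Poria.

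Extracts with the same column number were also compared directly at 500 µg/mL. Poria stood above Atractylodes in 5 members and below it in 3, with CYP3A4 the 1 that did not pass, against 21.8% of all genes that were higher and 21.1% that were lower. ABCC2 differed by 1.11 ± 0.038 on the log2 scale, UGT1A1 by 0.96 ± 0.065 and GSTA2 by -1.14 ± 0.093. Licorice stood above ginseng in 4 members and below it in 2, against 11.7% and 10.7% of all genes. UGT1A1 differed by 1.34 ± 0.063 there. The difference in CYP3A5, 0.23 ± 0.07 (adjusted p = 0.0219), was lost in DESeq2 (adjusted p = 0.0662), with no filter and with only the libraries compared (adjusted p = 0.191 and 0.0602, edgeR), and without ginseng replicate 2 or licorice replicate 3. That in GSTA1, -0.19 ± 0.07 (adjusted p = 0.0453, edgeR), was lost without any 1 of 4 libraries (adjusted p 0.0693 to 0.285). Angelica stood above peony in 4 members, CYP3A5, UGT1A1, GSTA1 and GSTA2, and below it in none, against 3.59% and 2.58% of all genes.

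The 6 dose responses, each 500 against 20 µg/mL, were tested for being equal in 1 joint test. They differed in 7 of the 9 members, all but CYP3A4 and UGT1A6 (adjusted p = 0.902 and 0.988, edgeR), against 35.1% of all genes. The 2 that did not pass are those of lowest count.

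Poria and licorice, the extracts with the most members changed over their doses, shared the rise of UGT1A1, ABCB1 and ABCC2 and the fall of CYP3A7, but in different amounts. The difference between their dose responses was tested after the data were seen. It passed in 6 of the 9 members, 1 with the higher response in Poria and 5 with the lower, against 13.5% and 12.3% of all genes. ABCC2 responded more to Poria, by 0.59 ± 0.053 on the log2 scale (adjusted p = 9.31e-13). UGT1A1 responded more to licorice, the difference being -0.32 ± 0.09 (adjusted p = 0.00646, edgeR). The difference was -1.42 ± 0.125 in GSTA2 (adjusted p = 5.42e-13), -0.91 ± 0.104 in GSTA1 (adjusted p = 1.03e-09) and -0.54 ± 0.136 in CYP3A7 (adjusted p = 0.00211, edgeR). In CYP3A5 it was -0.34 ± 0.1 (adjusted p = 0.0126), which was lost with no filter (adjusted p = 0.109, edgeR). In ABCB1 it did not pass, at 0.08 ± 0.073 (adjusted p = 0.493, edgeR).

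**Figure D4:**
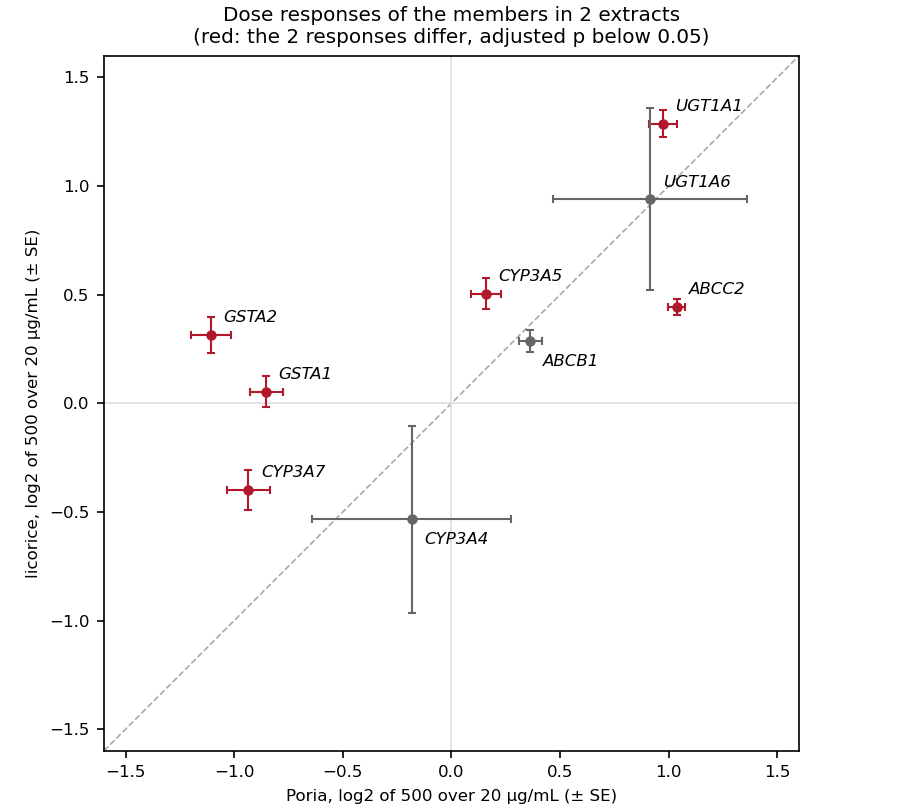
Log2 change from 20 to 500 µg/mL of each tested member with Poria (x axis) and licorice (y axis), with bars of ± 1 SE, the line of equal response dashed, and members whose responses differ past the threshold in red. GSTA1 and GSTA2 lie far left of the line, ABCC2 lies to its right and ABCB1 lies near it.

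The receptors themselves were measured in the same libraries. PXR (NR1I2) averaged 17.1 CPM and CAR (NR1I3) 0.844 CPM over all libraries. NR1I2 had 17.3, 17.6 and 17.1 CPM in vehicle, 22.3, 20.8 and 17.1 CPM with Poria at 500 µg/mL and 14, 14.2 and 15.3 CPM with licorice at 500 µg/mL. The Poria group overlapped vehicle and the licorice group did not. NR1I2 rose with Poria by 0.32 and fell with licorice by 0.27 on the log2 scale against vehicle. NR1I3, with 7 to 44 counts per library, did not pass in any of these comparisons, and its depth limited what could be detected. CEBPA, a transcription factor of liver genes, had a log2 change of -1.2 with Poria (SE 0.07, adjusted p = 3.72e-20, edgeR), and RXRA, the partner of both receptors, fell by 0.55 with Poria (SE 0.059, adjusted p = 3.54e-11) and by 0.44 with licorice (SE 0.058, adjusted p = 2.95e-08). NR0B2, a repressor that lacks a DNA-binding domain, rose by 1.40 ± 0.086 with wortmannin (adjusted p = 2.88e-19), as did PPARGC1A, a coactivator of fasting genes, by 1.24 ± 0.085 (adjusted p = 1.08e-17, edgeR). Of the 12 receptors and partners tested, 3 rose and 4 fell with wortmannin, 5 rose and 3 fell with Poria, and 4 rose and 5 fell with licorice. Of all genes, 22.4% rose and 24% fell with wortmannin, 23.9% and 23.7% with Poria and 16.7% and 15.7% with licorice, and the list counts below are to be read against these shares.

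Of 11 other oxidation genes of the pathway, 7 were tested. With wortmannin 5 rose and 1 fell, with Poria 1 rose and 5 fell, and with licorice 3 rose and 2 fell, with medians of 0.18, -0.16 and -0.08. ALDH1A1, which oxidises retinal and other aldehydes, fell by 0.64 with wortmannin and rose by 0.71 ± 0.044 with licorice (adjusted p = 2.04e-18, edgeR). EPHX1, the microsomal epoxide hydrolase, rose by 0.37 ± 0.045 with licorice. Of 10 other conjugation genes, 7 were tested, and 2 rose and 3 fell with wortmannin, 2 rose and 2 fell with Poria, and 1 rose and 2 fell with licorice. SULT2A1, a steroid sulfotransferase, had 159, 155 and 149 CPM in vehicle and 354, 347 and 357 CPM with wortmannin, a rise of 1.21 ± 0.043 on the log2 scale (adjusted p = 1.04e-28, edgeR), and fell with Poria by 0.38.

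Of 5 other transporters, 3 were tested, and ABCG2 and ABCC3, 2 further drug efflux pumps, rose with Poria and with licorice. ABCG2 had 12.5, 11.6 and 13.1 CPM in vehicle, 19 to 20.5 CPM with Poria and 21.3 to 22.1 CPM with licorice at 500 µg/mL. Its log2 changes were 0.76 ± 0.057 (adjusted p = 4.19e-16) and 0.80 ± 0.056 (adjusted p = 2.29e-16, edgeR). CYP7A1, which catalyses the first step of classical bile acid synthesis and is a gene that activated PXR is known to repress, was 1 of 3 further targets listed. It rose by 0.71 ± 0.099 with wortmannin and fell by 1.13 with Poria and by 1.25 with licorice on the log2 scale (adjusted p = 3.62e-08, 3.74e-11 and 5.8e-12, edgeR).

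Targets of the 2 other sensors were counted in the same way. Of 6 listed targets of the aryl hydrocarbon receptor, 5 rose with licorice at 500 µg/mL against vehicle, with a median of 2.54 over the list and -0.01 over all genes, while 1 rose and 1 fell with Poria. CYP1A1, the receptor's classical target, had 13.6, 11.6 and 13.2 CPM in vehicle, 703, 728 and 741 CPM with licorice, 114, 108 and 101 CPM with angelica, 44.4, 44.7 and 40.3 CPM with peony and 28.8, 22.1 and 22.8 CPM with Poria at 500 µg/mL. By level at 500 µg/mL, UGT1A1 stood in the order licorice, Poria, angelica, peony and CYP1A1 in the order licorice, angelica, peony, Poria. These orders cross the column numbers, and the part of the receptor in the level of UGT1A1 was not tested. Of 8 listed NRF2 targets, 8 rose with licorice, and 7 rose and 1 fell with Poria, against 16.7% of all genes that rose with licorice and 23.9% that rose with Poria. The responses of these 8 to Poria and to licorice over the doses differed in 4, with 2 higher and 2 lower in Poria and a median difference of 0. GCLC, the catalytic subunit of the first enzyme of glutathione synthesis, had 83.7, 78.8 and 80.4 CPM in vehicle, 190, 183 and 184 CPM with Poria and 127, 128 and 132 CPM with licorice. NQO1, a quinone reductase, had 431, 419 and 392 CPM in vehicle, 831, 867 and 853 CPM with Poria and 1157, 1137 and 1236 CPM with licorice.

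Across the 20 group means of log2 CPM, the genes with the highest Pearson r to ABCC2 were GPAT3 (0.987), GCLC (0.986) and SQSTM1 (0.984). Those to UGT1A1 were HSPA12A (0.964), NQO1 (0.946) and LINC00511 (0.932), and those to ABCB1 were OTUB2 (0.951), CLDN4 (0.949) and PTGR1 (0.942). CYP3A7 was followed most closely by CYP4V2 (0.954), LDHD (0.951) and SARDH (0.949), and CYP3A5 by NEAT1 (0.855), PRKAR1A (0.849) and HS1BP3 (0.846). GSTA1 was most like SUMO2 (0.932), IPO9 (0.909) and CDK2 (0.909), and GSTA2 most like NHEJ1 (0.929), DGAT1 (0.927) and SUMO2 (0.925). Among the members, r was 0.96 between GSTA1 and GSTA2, 0.89 between UGT1A1 and ABCB1, 0.84 between ABCB1 and ABCC2 and 0.40 between CYP3A5 and CYP3A7. Other pairs had a negative r, down to -0.73 between CYP3A7 and ABCB1. These values describe the 20 groups, which share their normalisation, and the groups of 1 extract are not independent of each other.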

How the data were processed

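RNA sequencing of HepG2 cells was analysed in 60 libraries. Per the submitters' processing notes, FastQC 0.11.9, Trim Galore 0.6.5, STAR 2.7.3a and RSEM 1.3.3 were used with GRCh38. The annotation release is not given in the sources used here. The authors deposited 1 table of expected counts by gene from RSEM. Of the values above 0, 76.1% are whole, and all were rounded to whole counts here. The table has 270 columns, of which 210 were not used. RSEM shares out reads between similar genes, so sums over the CYP3A, UGT1A and GSTA genes were also tested. The CYP3A sum left out CYP3A7-CYP3A51P, with which CYP3A7 shares most sequence.

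Coordinates, exon lengths and transcripts are of GENCODE v29, promoters of RefSeq. A single edgeR model (edgeR 4.0.16, R 4.3.3) held all libraries, with 1 mean per group, TMM factors, filterByExpr (minimum count 10, minimum total 15), a prior count of 0.125 and the quasi-likelihood test. Benjamini-Hochberg adjustment ran over all 16093 genes within a comparison, at a threshold of 0.05. DESeq2 1.42.0 was an alternative. CPM values are counts per 1 M counts of a library, without TMM factors.

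The members, the pathway lists and the comparisons were chosen with earlier results of these data known. All 10 members are named. Some genes of the lists are not reported here. From each list up to 4 genes past the threshold by size of change may be named in a comparison. NR1I2, NR1I3 and some examples outside that rule were named after their values were seen. Same-numbered libraries correlated above 0.1 in every pair in 3 of 16 comparisons (peony over its doses, Poria against Atractylodes, licorice against ginseng). No 2 libraries of a group agreed within sampling noise.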

Additional observations from a re-analysis of the deposited data

Results flagged for a closer look

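The response to 500 against 20 µg/mL differed between the 6 extracts in 7 members, by the joint test in edgeR. Its adjusted p was 9.69e-23 in ABCC2, 9.97e-17 in UGT1A1, 8.26e-15 in GSTA2, 1.64e-13 in GSTA1, 2.2e-06 in CYP3A7, 8.03e-06 in CYP3A5 and 5.58e-05 in ABCB1. In ABCC2 the largest log2 change was 1.04 with Poria, and Atractylodes, ginseng and angelica did not pass. In UGT1A1 they ran from 0.06 with ginseng to 1.29 with licorice. In GSTA1 and GSTA2 they ran from -0.85 and -1.11 with Poria to 0.39 and 0.46 with angelica, so these 2 genes changed in opposite directions in different extracts. Of all genes tested, 35.1% differed in the same test.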

How the results depend on the processing

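Of 81 results in which a member passed the threshold, 74 kept their side of it in every alternative that leaves out no library, and 70 in every fit without 1 library. None of these results reversed. Among the 81 member results that had not passed, 5 and 6 did so in at least 1 alternative of the 2 kinds. The number of members called moved by more than 1.5 times in 3 comparisons. For ginseng over its doses it was 1 in place of 0 in DESeq2 and with no filter. For peony over its doses it was 1 in place of 3 with only the libraries compared and in the regression on log dose. For ginseng against vehicle it ran from 0 to 2 without 1 library each. Smaller moves included 7 in place of 8 for Poria against Atractylodes and 5 in place of 6 for licorice against ginseng in DESeq2, 4 for the latter and 5 in place of 6 for wortmannin without single libraries. Counts also moved against vehicle with licorice, angelica and peony, over the doses of Poria and licorice, and in the difference between their responses. With the replicate block all 18 counts of members were the same as without it, 6 for wortmannin against vehicle among them, and no call of a member changed. The number of family sums called was 32 and moved in no alternative by more than 1.5 times. Over all genes, the count called for Atractylodes over its doses was 90 with no filter in place of 8, that for ginseng 114 in place of 24, and that for peony 156 in place of 561 with only the libraries compared. Without 1 library the count fell from 1648 to 856 for ginseng against vehicle (ginseng replicate 2), from 3045 to 1800 for angelica against vehicle (vehicle replicate 3) and from 993 to 548 for angelica against peony (peony replicate 3). Depth limits CYP2B6, CYP3A4 and UGT1A6, whose counts stayed at or below 52 per library. It also limits NR1I3, which is no member and had at most 44 counts. Comparisons with vehicle share its 3 libraries, and column set and DMSO cannot be told apart from treatment in them.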

Other observations

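The level of CYP3A5 at 100 µg/mL was below its level at both other doses in 5 of the 6 extracts, all but peony. The group means at 20, 100 and 500 µg/mL were 8.36, 7.31 and 8.85 CPM with Poria, 7.55, 6.73 and 7.38 CPM with Atractylodes, 6.42, 5.42 and 9.15 CPM with licorice, 7.4, 6.795 and 7.7 CPM with ginseng and 7.44, 7.17 and 8.58 CPM with angelica. The libraries at 100 µg/mL did not overlap those at 20 µg/mL with ginseng, where the highest had 6.96 CPM and the lowest at 20 µg/mL had 7.09 CPM. With licorice they met at 6.1 CPM, and with Poria, Atractylodes and angelica they overlapped. Of the Poria libraries at 100 µg/mL, replicate 1, which stood apart from its group, had the lowest value, 6.95 CPM. Replicate 1 of ginseng at 100 µg/mL also stood apart from its group. The 100 µg/mL groups were not tested against another dose on their own, and they entered only the trend on log dose. A dip at 100 µg/mL was not particular to CYP3A5. CYP3A4, near its limit of detection, had its lowest mean at 100 µg/mL in every extract. So did CYP3A7 with Atractylodes, licorice and angelica, and ABCC2 with Atractylodes and ginseng (319.1 and 327.2 CPM). With Poria, ABCC2 was higher at 100 than at 20 µg/mL. The share of all genes with such a dip was not counted.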
